A study of Mus musculus with 12 samples.

Results

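The genes described here encode the pyruvate dehydrogenase complex, the citric acid cycle and the enzymes that feed carbon into the cycle or draw it off. They were taken from a named list of 31 symbols, matched by symbol to Ensembl identifiers. All 31 were found among 28991 gene identifiers and all 31 passed the filter on low counts, which left 20370 genes to test. Whole kidneys of male BALB/c mice, an inbred laboratory strain, aged 8 weeks, were profiled by RNA sequencing in 4 groups of 3 mice. Saline mice received saline into the peritoneum every day for 6 days. Dichloroacetate mice received dichloroacetate at 250 mg/kg in the same way for 6 days. Cisplatin mice received saline for 5 days and then a single dose of cisplatin at 20 mg/kg, with the kidney taken 24 h later. Combination mice received dichloroacetate at 250 mg/kg for 5 days and then cisplatin at 20 mg/kg together with dichloroacetate, with the kidney again taken 24 h later. The labels name no transgene or mutation for any group and describe each library as a mouse of its own.

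As background, the pyruvate dehydrogenase complex turns pyruvate into acetyl-CoA inside mitochondria, and the citric acid cycle oxidises that acetyl group to carbon dioxide while handing electrons to the respiratory chain. Its activity is controlled by phosphorylation: a family of kinases shuts it down, and dichloroacetate is an inhibitor of those kinases. Cisplatin is a DNA-crosslinking cancer drug known for injuring the kidney, above all the proximal tubule, a segment packed with mitochondria that depends on oxidation of fuels.

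Library totals were 29505929 to 35925471 counts in the cisplatin-treated mice and 38236592 to 62237514 in the others. No member had fewer than 1215 counts in a library, so the 3 mice per group and not counting set the precision, and the highest coefficient of variation of any member within a group was 14.4%. Levels are CPM, counts scaled to a common library total after TMM scaling, a correction for differences in RNA composition between libraries. Log2 fold changes are given ± their standard error (SE). A gene is called when its edgeR quasi-likelihood p, adjusted by Benjamini-Hochberg over all 20370 genes, is below 0.05. All 12 markers of the proximal tubule were detected in every library.

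In saline kidneys the level per kilobase of exon differed widely between the members. Mdh1, the cytosolic malate dehydrogenase, was highest at 452 CPM per kb. Ldhd, a mitochondrial D-lactate dehydrogenase, followed at 262 CPM per kb, and Sdhd, a membrane anchor of succinate dehydrogenase, at 218 CPM per kb. The lowest were Pdhx at 11.4, Gpt2 at 12.3 and Gpt at 12.8 CPM per kb. Pdhx encodes the component that holds dihydrolipoamide dehydrogenase in the pyruvate dehydrogenase complex, and Gpt and Gpt2 are the cytosolic and mitochondrial alanine aminotransferases.

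Cisplatin alone lowered most of these genes. Against saline, 25 of the 31 fell, where 30.4% of all tested genes fell, and 3 rose, where 29.7% of all genes rose. The 3 that rose were Got2, Glud1 and Gpt, all enzymes of amino acid nitrogen exchange, as are Got1, which fell, and Gpt2. The 3 not called were Cs, Mdh2 and Gpt2. For each of the 25 genes that fell, every cisplatin library lay below every saline library, a pattern found in 32.7% of all genes. The median log2 fold change was -0.45 over the members and -0.01 over all genes tested. Scaling to library totals in place of TMM moved the median of all genes to 0.26 and that of the members to -0.17. The distance between them was -0.44 in the one case and -0.43 in the other. A change of scaling moves all genes of a comparison by nearly the same amount, so this distance could hardly differ. Under that scaling 20 members fell and 5 rose, Cs and Mdh2 being the additional ones.

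**Figure D1:**
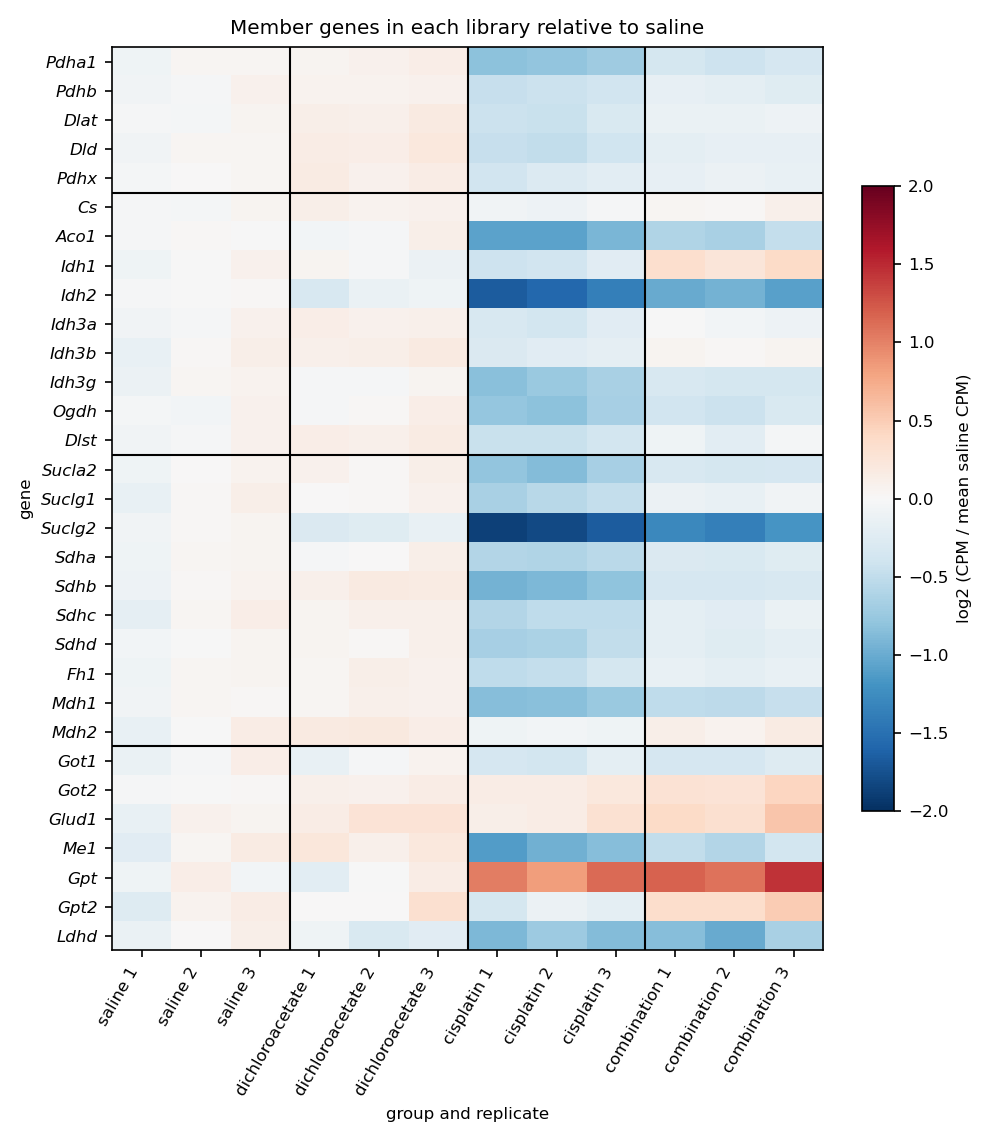
Log2 of each library's CPM over the mean saline CPM, for the 31 genes (rows, in 4 role groups separated by lines: pyruvate dehydrogenase complex, citrate to succinyl-CoA, succinyl-CoA to oxaloacetate, feeder enzymes) and 12 libraries (columns, by group and replicate). Blue is below saline and red above; most rows are blue in the 3 cisplatin libraries and paler in the 3 combination libraries, while Gpt is red in all 6.

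The fall was uneven, and the stretches before the start sites of 4 genes at different points of that range are shown. Suclg2 and Idh2 fell most, Cs was not called, and Got1, which fell by 0.30, holds a match to a motif searched for. The letters are RefSeq (GRCm38.p6), the 5′ to 3′ strand of the gene, up to 250 bases before its start and shortened where they would enter an annotated exon. Capitals mark a match to AAGGTCA, the site of estrogen-related receptors, factors known for driving mitochondrial genes.
Suclg2 (chr6:95718847-95719096, minus strand): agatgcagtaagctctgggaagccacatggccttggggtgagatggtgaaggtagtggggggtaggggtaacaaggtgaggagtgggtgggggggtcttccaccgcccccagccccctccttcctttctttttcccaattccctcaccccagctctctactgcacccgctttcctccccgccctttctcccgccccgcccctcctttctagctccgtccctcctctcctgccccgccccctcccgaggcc
Idh2 (chr7:80115393-80115600, minus strand): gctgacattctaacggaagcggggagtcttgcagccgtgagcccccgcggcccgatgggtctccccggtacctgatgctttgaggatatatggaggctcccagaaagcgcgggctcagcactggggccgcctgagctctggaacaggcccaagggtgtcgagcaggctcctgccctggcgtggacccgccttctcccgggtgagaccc
Cs (chr10:128337477-128337726, plus strand): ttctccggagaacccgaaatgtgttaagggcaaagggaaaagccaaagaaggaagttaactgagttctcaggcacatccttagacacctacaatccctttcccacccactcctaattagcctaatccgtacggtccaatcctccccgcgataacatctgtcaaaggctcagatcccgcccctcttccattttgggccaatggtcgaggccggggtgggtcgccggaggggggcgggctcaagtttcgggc
Got1 (chr19:43524606-43524855, minus strand): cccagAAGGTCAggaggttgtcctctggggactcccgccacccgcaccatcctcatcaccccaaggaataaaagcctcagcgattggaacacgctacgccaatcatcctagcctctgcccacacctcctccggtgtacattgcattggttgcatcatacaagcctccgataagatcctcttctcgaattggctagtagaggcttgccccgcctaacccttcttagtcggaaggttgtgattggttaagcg
Of the 31 genes, 28 had an entry, and Gpt, Idh3a and Sdhc had none. GC content and motifs were counted over all 250 bases before a start, with bases in annotated exons kept. For Mdh1 the shortening at exons left no base. The median GC content of the members' 250 bases was 61.4%, against 52.4% over all genes with an entry, whose quartiles were 45.2% and 60.8%. Within the 4 shown, it was 64.4% for Suclg2, 67.2% for Idh2, 55.2% for Cs and 54.4% for Got1. On both strands, AAGGTCA occurred before 1 of the 28 members (Got1), or 3.57%, against 4.7% of 27025 genes. The NRF1 site, GCGCA and GCGC with any 1 base between, occurred before 3 members (Sucla2, Sdha and Sdhd), 10.7% against 4.23%. In none of these 3 did a match lie within the stretch shortened at exons. The YY1 site AAGATGGC occurred before Idh3g only, 3.57% against 1.83%, and the E-box CACGTG before Ogdh and Ldhd, 7.14% against 6.86%. The Ogdh match did not lie within a shortened stretch either. The ETS-family site CCGGAAGT occurred before 0 members and before 3.23% of genes. No member held more than 1 kind of these motifs, and Sdha held more than 1 match to the NRF1 site. They were chosen with the results known, and a match describes letters only.

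All 5 subunits of the pyruvate dehydrogenase complex fell after cisplatin. Pdha1, the alpha subunit of the decarboxylating enzyme and the target of the kinases, fell furthest, from 446 ± 21.5 CPM (SD, n = 3) in saline mice to 261 ± 10.5 in cisplatin mice, or by 0.77 ± 0.05 in log2 (edgeR adjusted p = 3e-08). Its beta partner Pdhb changed by -0.42 ± 0.05, the acetyltransferase core Dlat by -0.39 ± 0.05, the shared dihydrolipoamide dehydrogenase Dld by -0.45 ± 0.05 and Pdhx by -0.29 ± 0.05. Pdha1 kept 58.5% of its saline mean and Pdhb 74.7%, a difference between genes that was not tested. With library totals the Pdhx call ended, at -0.01 (adjusted p = 0.85). Pdha1 shares 603 bases of exon, 16.1% of its own, with Map3k15 on the opposite strand, which itself changed by -1.01 ± 0.06, and no source used here gives the strand setting of the counting.

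Among the genes from citrate to succinyl-CoA, 8 of 9 fell. Cs, citrate synthase, the entry point of the cycle, had 247, 243 and 259.8 CPM in the saline mice and 237, 232 and 246 CPM in the cisplatin mice. These ranges overlapped, with a log2 fold change of -0.07 ± 0.05 (edgeR adjusted p = 0.23) that became 0.21 with library totals. Aco1, the cytosolic aconitase that doubles as an iron sensor (ENSMUSG00000028405, chromosome 4, 40143081 to 40198338), had 420.2, 438 and 428 CPM in saline and 205, 204 and 226 CPM in cisplatin mice. The highest cisplatin library was far below the lowest saline library, a change of -1.02 ± 0.07 (edgeR adjusted p = 1.9e-08).

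Idh2, the mitochondrial NADP-dependent isocitrate dehydrogenase that supports antioxidant defence (ENSMUSG00000030541, chromosome 7, 80094846 to 80115392), had 433, 439 and 449 CPM in saline mice. In cisplatin mice it had 139, 148 and 171 CPM. Every cisplatin library was far below every saline library, leaving 34.7% of the saline mean, with a log2 fold change of -1.53 ± 0.08 (edgeR adjusted p = 2.9e-09). Its cytosolic counterpart Idh1 (ENSMUSG00000025950, chromosome 1, 65158616 to 65186500) had 392, 415 and 443 CPM in saline mice and 313, 319 and 356 CPM in cisplatin mice. The groups did not overlap and Idh1 fell by 0.34 ± 0.07 (edgeR adjusted p = 0.00064), a call that ended with library totals at -0.06 (adjusted p = 0.35).

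The NAD-dependent isocitrate dehydrogenase of the cycle proper has 3 subunits, and they did not move by the same amount. Idh3g, a regulatory subunit, changed by -0.74 ± 0.06. The catalytic Idh3a had 141, 146 and 158 CPM in saline and 118, 115 and 127 CPM in cisplatin mice, a change of -0.30 ± 0.06. The other regulatory subunit Idh3b changed by -0.23 ± 0.06, which became 0.05 with library totals, where the Idh3a change was -0.02 (adjusted p = 0.69). In the alpha-ketoglutarate dehydrogenase complex, the dehydrogenase Ogdh changed by -0.75 ± 0.06 and the succinyltransferase core Dlst by -0.42 ± 0.06.

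From succinyl-CoA to oxaloacetate, 9 of 10 genes fell. Suclg2, the beta subunit that makes succinyl-CoA ligase GTP-forming (ENSMUSG00000061838, chromosome 6, 95473009 to 95718800), showed the largest fall of all 31 members. It had 471, 503 and 515 CPM in saline mice and 136, 143 and 156 CPM in cisplatin mice. The cisplatin libraries kept 29.2% of the saline mean, a log2 fold change of -1.78 ± 0.07 (edgeR adjusted p = 2.3e-10). Sucla2, the alternative beta subunit that makes the ligase ATP-forming, had 204, 218 and 227 CPM in saline mice and 125, 119 and 137 CPM in cisplatin mice, a change of -0.77 ± 0.06. The alpha subunit Suclg1, common to both forms, changed by -0.56 ± 0.07. A processed pseudogene, Gm15163, matches Suclg2 over 1302 bases at 98.9% identity, so reads may be split between them. It was listed with a mean of 2970 counts per library, against 13209 for Suclg2, and changed by -1.77 ± 0.07, and adding its counts to Suclg2 changed no call.

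All 4 subunits of succinate dehydrogenase, which is also complex II of the respiratory chain, fell. Sdhb, the iron-sulfur subunit (ENSMUSG00000009863, chromosome 4, 140961203 to 140979193), had 320.0, 349 and 362 CPM in saline mice and 178, 184 and 197 CPM in cisplatin mice. It fell furthest of the 4, by 0.88 ± 0.06 (edgeR adjusted p = 1.8e-08). The flavoprotein Sdha changed by -0.58 ± 0.05, and the membrane anchors Sdhc and Sdhd by -0.53 ± 0.07 and -0.60 ± 0.06. Fh1, fumarase, changed by -0.44 ± 0.06.

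The malate dehydrogenases parted. Cytosolic Mdh1 (ENSMUSG00000020321, chromosome 11, 21556787 to 21572367) had 1108, 1195 and 1176 CPM in saline mice and 640.2, 651 and 694 CPM in cisplatin mice. No cisplatin library came near the saline range, with a log2 fold change of -0.81 ± 0.05 (edgeR adjusted p = 1.1e-08). Mitochondrial Mdh2 had 308, 339 and 376 CPM in saline mice and 322, 328 and 321 CPM in cisplatin mice. These ranges overlapped and the change of -0.08 ± 0.06 was not called (edgeR adjusted p = 0.3), though with library totals it was 0.20 and was.

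The 7 feeder enzymes went both ways: 3 fell, 3 rose and Gpt2 was not called. Me1, the cytosolic malic enzyme that makes NADPH and pyruvate from malate (ENSMUSG00000032418, chromosome 9, 86581371 to 86695953), had 579.7, 702 and 759.9 CPM in saline and 314, 349 and 377 CPM in cisplatin mice. Ldhd (ENSMUSG00000031958, chromosome 8, 111623785 to 111630374) had 1270.3, 1404 and 1519.7 CPM in saline and 750.0, 848 and 765 CPM in cisplatin mice. In both genes the groups stood apart, with changes of -0.97 ± 0.10 for Me1 and -0.83 ± 0.09 for Ldhd (edgeR adjusted p = 1.2e-06 and 4.3e-06). Ldhd shares 42.2% of its exon bases (2246) with Znrf1 on the opposite strand, which changed by -0.68 ± 0.08, so with the strand setting not given their reads may not be told apart.

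Gpt (ENSMUSG00000022546, chromosome 15, 76695716 to 76699686) showed the largest rise of the 3 members that rose. It had 35.6, 41.2 and 36.5 CPM in saline mice and 76.4, 67.6 and 82.4 CPM in cisplatin mice. Each cisplatin library was above each saline library, with a log2 fold change of 1.00 ± 0.11 (edgeR adjusted p = 3.5e-06). How many of all genes separate upward in this way was not counted. Gpt2 (ENSMUSG00000031700, chromosome 8, 85492576 to 85527560) had 58.2, 73.1 and 77.3 CPM in saline and 54.6, 64.2 and 60.9 CPM in cisplatin mice, which overlapped, at -0.21 ± 0.11 (edgeR adjusted p = 0.11). Both enzymes interconvert alanine and pyruvate.

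Of the aspartate aminotransferases, which link aspartate to oxaloacetate, cytosolic Got1 had 105, 114 and 127 CPM in saline and 91.8, 89.4 and 100.5 CPM in cisplatin mice. It fell by 0.30 ± 0.08 (edgeR adjusted p = 0.0042), a call that ended with library totals, at -0.02 (adjusted p = 0.80). Mitochondrial Got2 had 293, 298 and 305 CPM in saline and 332, 330.2 and 347 CPM in cisplatin mice and rose by 0.17 ± 0.05 (edgeR adjusted p = 0.01). Got2 is uncertain in level because Got2-ps1 and Gm10874 match it at 99.1% and 98.8% identity, and these changed by 0.20 ± 0.05 and 0.20 ± 0.05. Glud1, glutamate dehydrogenase, which makes alpha-ketoglutarate from glutamate, rose by 0.20 ± 0.08 (edgeR adjusted p = 0.043). That call was lost when any of 5 libraries was left out (saline replicate 1, dichloroacetate replicate 2, cisplatin replicates 2 and 3, combination replicate 1), with changes between 0.13 and 0.25 and adjusted p up to 0.18 over the 12 leave-one-out fits.

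**Figure D2:**
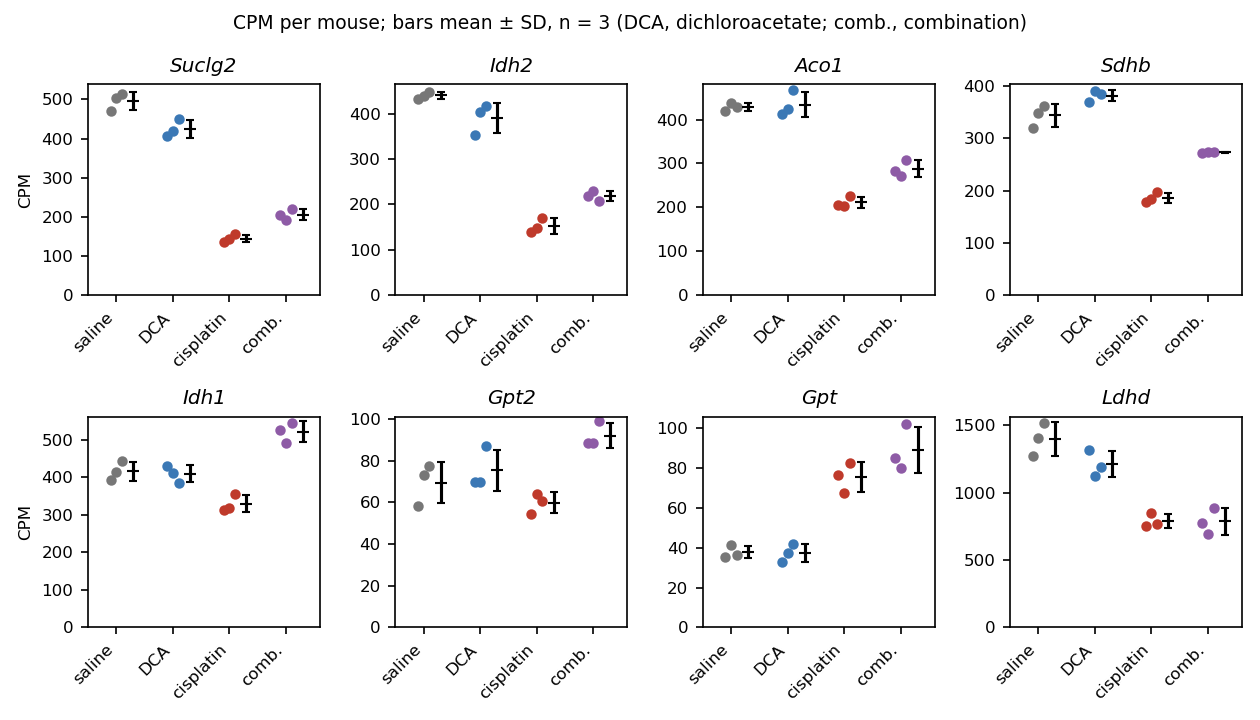
CPM (vertical axes, from 0) in each mouse for 8 of the genes in the 4 groups, with bars for the mean ± SD of 3 mice. Suclg2, Idh2, Aco1 and Sdhb sit lowest in cisplatin mice and in between in combination mice, Idh1 and Gpt2 are highest in combination mice, Gpt is high in both cisplatin-treated groups, and Ldhd is low in both.

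Lists of cell type markers differed in how they moved with cisplatin, where 30.4% of all genes fell and 29.7% rose. The 12 proximal tubule markers summed to 10966 to 12360 CPM in saline mice and 10237 to 11382 CPM with dichloroacetate, and to 3451 to 4082 CPM in cisplatin mice and 6083 to 6638 CPM in the combination. The 31 members summed to 10806 to 12169, 11684 to 12136, 7324 to 7940 and 9082 to 9841 CPM in the same order. All 12 proximal tubule markers fell with cisplatin, among them the endocytic receptor Lrp2. The 5 thick ascending limb markers summed to 3561 to 4111, 3153 to 3802, 1781 to 2309 and 1656 to 2606 CPM, again in that order. The 4 distal convoluted tubule markers summed to 601 to 754, 580 to 745, 146 to 164 and 196 to 211 CPM in that order. All 12 proximal tubule markers were higher in the combination than with cisplatin, where 18.1% of all genes were. All 12 had an interaction called above 0 (11.4% of all genes), with a median of 1.04 against 0.25 over the members. Of the thick ascending limb markers 4 fell with cisplatin and Cldn16 rose, by 0.71. The 5 macrophage markers summed to 87.3 to 101.8, 72.2 to 103, 79.5 to 95.2 and 63.6 to 68.7 CPM in that order, with Cd68 higher by 4.00 and Adgre1 and Csf1r lower with cisplatin. Of 3 erythroid markers tested, 3 fell with cisplatin (median -2.18), and that list summed to 135.7 to 339.6 CPM in saline and 36.5 to 73.5 CPM in cisplatin mice. Of 5 endothelial and 5 podocyte markers, 4 of each fell, and 2 of 4 neutrophil markers tested rose. Of 5 principal cell and 5 intercalated cell markers, 3 of each fell. Of 5 fibroblast markers 1 fell and of 3 smooth muscle markers 0, and in these lists 0 rose. The skeletal muscle markers Ckm and Myh4 were at or near 0. The part of these markers in the members' changes was not tested. In whole-kidney RNA, fewer cells of a type and less RNA per cell cannot be told apart.

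Dichloroacetate alone moved no member past the threshold. It called 0 of 31 higher (0.128% of all genes) and 0 of 31 lower (0.182%), with the smallest adjusted p among the members at 0.19. At an unadjusted p below 0.05, edgeR had 7 members higher (Dlat, Dlst, Sdhb, Pdhx, Mdh2, Dld and Glud1) and 3 lower (Idh2, Ldhd and Suclg2). DESeq2 also called 0 and had 11 higher and 3 lower at an unadjusted p below 0.05, and limma called 0 with 9 and 2. Across all genes, 5.7% were higher and 6.21% lower at that unadjusted level. Of the 31 log2 fold changes, 25 were above 0, between -0.23 for Suclg2 and 0.23 for Glud1, with a median of 0.08 against -0.01 over all genes. The share of all genes above 0 was not counted. That median was 0.04 without saline replicate 1 and 0.12 without saline replicate 3. Dld, 314, 340.2 and 339 CPM in saline and 368, 361 and 383 CPM in dichloroacetate mice, was higher in every treated library and changed by 0.16 ± 0.05 (edgeR adjusted p = 0.19). Suclg2, at 406, 419 and 449 CPM in dichloroacetate mice, was lower in every treated library and changed by -0.23 ± 0.07 (edgeR adjusted p = 0.19). Neither gene was called. How many of all genes separate in this way was not counted, and Dld was picked after its values were seen. With library totals Suclg2 alone among the members was called, at -0.27 (adjusted p = 0.04).

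Adding dichloroacetate to cisplatin raised most of these transcripts above their level with cisplatin alone. This comparison shares its cisplatin libraries, with opposite sign, with cisplatin against saline, and the interaction holds them too. Noise in those libraries can therefore enlarge a fall and the rise after it together, so these counts are not independent. In the combination, 27 of 31 members were higher than with cisplatin, where 18.1% of all genes were, and 0 were lower, where 13.5% were. At an unadjusted p below 0.05, 0 members were lower by edgeR, DESeq2 or limma, where 18.3% of all genes were lower. The median was 0.31 over the members and 0.01 over all genes. The 4 not called were Cs, Got1, Gpt and Ldhd. With library totals the median of all genes was -0.11 and that of the members 0.18, and 21 members were called higher.

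All 5 pyruvate dehydrogenase subunits were higher, from 0.15 ± 0.05 for Pdhx to 0.41 ± 0.05 for Pdha1, which reached 77.6% of its saline mean. The Pdhx call (edgeR adjusted p = 0.041) was kept in 3 of 12 fits that each left out a library (saline replicate 1 or 3, cisplatin replicate 3) and lost in DESeq2 at 0.13 (adjusted p = 0.11). With library totals Pdhb (0.10, adjusted p = 0.12) and Pdhx (0.02, adjusted p = 0.79) were not called. Idh1 rose most of all members, to 528, 491 and 546 CPM in combination mice, above every library of the other groups, by 0.66 ± 0.07 over cisplatin (edgeR adjusted p = 1.6e-05). Gpt2 reached 88.5, 88.7 and 98.9 CPM, again above every library of the other groups, and rose by 0.62 ± 0.11 (edgeR adjusted p = 0.00085). How many of all genes stand above the other groups in this way was not counted.

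The genes that had fallen furthest with cisplatin were only partly higher in the combination. Their fall and their rise were measured against the same cisplatin libraries. Suclg2 had 204, 192 and 220.0 CPM in combination mice, above all cisplatin and below all saline libraries, 41.4% of its saline mean (0.50 ± 0.07 over cisplatin, edgeR adjusted p = 0.00011). Idh2 had 219, 229 and 208 CPM, 49.7% of its saline mean (0.52 ± 0.08, edgeR adjusted p = 0.00025). Aco1 had 283, 272 and 309 CPM (0.44 ± 0.06) and Me1 482, 455 and 525 CPM (0.49 ± 0.09). These 4 genes each stood between the cisplatin and the saline libraries with no overlap, as did other members, among them Pdha1, Sdhb and Mdh1. How many of all genes do so was not counted. Sdhb was nearly identical in the combination mice at 272, 274 and 274 CPM, 79.5% of its saline mean, and rose by 0.55 ± 0.06 over cisplatin (edgeR adjusted p = 1.5e-05). Suclg1 had 212, 224 and 238 CPM in cisplatin and 304, 298 and 314 CPM in combination mice and rose by 0.44 ± 0.07, and the other succinate dehydrogenase subunits by 0.30 for Sdha, 0.35 for Sdhc and 0.39 for Sdhd.

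Several feeder enzymes did not share the rise. Ldhd had 777, 696 and 889 CPM in combination mice, spanning the cisplatin libraries, at 0.00 ± 0.09 (edgeR adjusted p = 1). Got1 had 91.1, 91.4 and 96.7 CPM, at -0.01 ± 0.08 (edgeR adjusted p = 0.92). Gpt, already high with cisplatin, had 85.2, 79.9 and 102 CPM, at 0.24 ± 0.11 (edgeR adjusted p = 0.11). The called rises of Got2 (0.16 ± 0.05), Glud1 (0.23 ± 0.08) and Mdh2 (0.19 ± 0.06) each ended when cisplatin replicate 1, cisplatin replicate 2 or combination replicate 3 was left out (for Mdh2 also cisplatin replicate 3 or combination replicate 1, for Glud1 also combination replicate 1). Over the 12 such fits the changes ran from 0.08 to 0.19 for Got2, 0.13 to 0.29 for Glud1 and 0.14 to 0.22 for Mdh2, and size factors in place of TMM also ended the 3 calls.

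Cisplatin was also compared in mice that all had dichloroacetate. These libraries are not those averaged for cisplatin and saline, but all 12 share the spread estimated in the fit. Against dichloroacetate alone, 22 of 31 members were lower in the combination (19.2% of all genes were) and 3 were higher, Idh1, Got2 and Gpt (21.5% of all genes were). All 22 were among the 25 members that had fallen in cisplatin against saline. The share of all genes lower in both was not counted. Idh3b and Suclg1 had fallen there but were not called here, at -0.09 ± 0.06 and -0.15 ± 0.07 (edgeR adjusted p = 0.29 and 0.078). The largest fall was again Suclg2, at -1.05 ± 0.07, followed by Idh2 at -0.84 ± 0.08. Idh1 was 431, 411 and 386 CPM with dichloroacetate alone and higher by 0.35 ± 0.07 in the combination (edgeR adjusted p = 0.001). With library totals 13 members were lower and 7 higher, and Idh3a, -0.17 with TMM, was 0.03. The Idh3a call also ended when any dichloroacetate replicate or combination replicate 2 or 3 was left out (-0.19 to -0.15, adjusted p up to 0.092).

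The difference between the responses to cisplatin with and without dichloroacetate was tested as an interaction. It was above 0 and called for 14 of 31 members (11.4% of all genes), and below 0 and called for 0 (7.15%). At an unadjusted p below 0.05, 0 members had it below 0 by edgeR, DESeq2 or limma, where 13.1% of all genes did. The 14 were Pdha1, Aco1, Idh1, Idh2, Idh3g, Ogdh, Sucla2, Suclg1, Suclg2, Sdha, Sdhb, Sdhd, Mdh1 and Gpt2. The interaction was 0.73 ± 0.10 for Suclg2 (edgeR adjusted p = 0.00029), 0.69 ± 0.11 for Idh2 (0.001), 0.69 ± 0.10 for Idh1 (0.00042), 0.50 ± 0.16 for Gpt2 (0.039) and 0.43 ± 0.09 for Aco1 (0.0059). Idh1 was lowered by cisplatin without dichloroacetate and raised with it, and Gpt2 was called in neither response, at -0.21 and 0.29 (edgeR adjusted p = 0.11 and 0.051). Without saline replicate 1, Gpt2 was called lower in the one at -0.33 (adjusted p = 0.014) and higher in the other at 0.29 (0.022). The other members named here fell in both responses, by less with dichloroacetate, except Suclg1, not called with it. Of the 14 calls, 10 were kept in all 12 leave-one-out fits. Gpt2 was kept in 3 of them, those without saline replicate 1, dichloroacetate replicate 3 or cisplatin replicate 2 (0.41 to 0.62 over the 12 fits, adjusted p up to 0.12). Sdha was kept in 4, those without saline replicate 1, dichloroacetate replicate 3, cisplatin replicate 3 or combination replicate 2 (0.21 to 0.30 over the 12), and Mdh1 in the same 4 and without dichloroacetate replicate 2 (0.19 to 0.27 over the 12). Ogdh was lost without cisplatin replicate 1 or 2 or combination replicate 3 (0.26 to 0.38 over the 12).

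**Figure D3:**
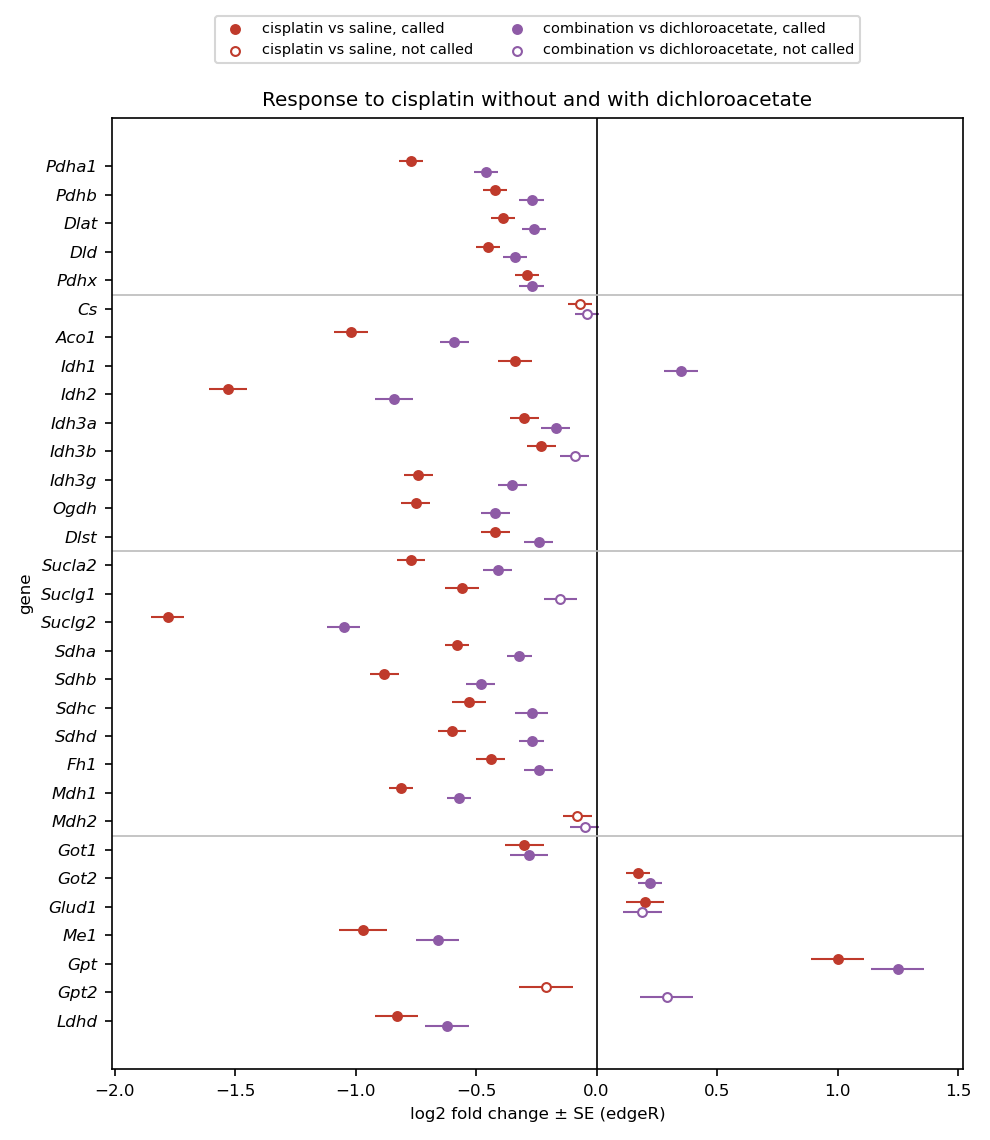
Log2 fold change ± SE (edgeR) of cisplatin against saline (red) and of combination against dichloroacetate (purple) for the 31 genes, with filled points called and open points not called. Purple points lie closer to 0 than red points for most genes below 0, as for Suclg2 (-1.78 and -1.05) and Idh2 (-1.53 and -0.84), Idh1 changes side, and the 2 points of Got1 and of Pdhx nearly coincide.

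Against saline, the combination left 19 members lower (19.6% of all genes) and 5 higher (20.6%), with 7 not called. The 19 included 4 of the 5 pyruvate dehydrogenase subunits, Idh2, Suclg2, Sucla2, all 4 succinate dehydrogenase subunits, Ogdh, Mdh1, Me1 and Ldhd. With library totals 13 members were lower, and Pdhb (-0.05), Dld (-0.02), Pdhx (0.01), Sdhc (-0.03), Sdhd (-0.06) and Fh1 (-0.01) were no longer called, which left Pdha1 of the pyruvate dehydrogenase subunits and Sdha and Sdhb of succinate dehydrogenase. Dlat, Idh3a, Idh3b, Dlst and Suclg1, which cisplatin alone had lowered, were not called, with changes between -0.12 for Dlat and 0.04 for Idh3b. The 5 higher were Idh1 (0.32 ± 0.07), Got2 (0.33 ± 0.05), Glud1 (0.42 ± 0.08), Gpt (1.24 ± 0.11) and Gpt2 (0.40 ± 0.11). Calls near the threshold moved. Sdhc (-0.18 ± 0.07, edgeR adjusted p = 0.047) was kept in 1 of 12 leave-one-out fits, the one without saline replicate 1. Pdhx (-0.14 ± 0.05) and Fh1 (-0.16 ± 0.06) were kept in 7, each lost without saline replicate 2 or 3 or any combination replicate. Dld (-0.17 ± 0.05) was kept in 10, lost without saline replicate 2 or combination replicate 1. Combination against cisplatin and against saline share the combination libraries, so the counts are not independent of each other.

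Ratios of partner enzymes within a library do not depend on how libraries are scaled. For each of 6 pairs the log2 ratio of counts was compared between cisplatin-treated and other mice, within mice with and within mice without dichloroacetate, by an exact 2-sided permutation test. Each of the 6 gave an exact permutation p of 0.005, the smallest that 400 arrangements can give, and 0.005 after Benjamini-Hochberg adjustment over the 6. With cisplatin 30.4% of all genes fell and 29.7% rose, so many other pairs may reach this floor. Their share was not counted, and the p values therefore show nothing particular to these pairs. Idh1/Idh2 and Idh3a/Idh2 share Idh2. All 6 ratios use counts already tested gene by gene, so they are not separate evidence of those changes. Counts are not corrected for gene length here, so only changes in a ratio carry meaning.

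The ratio of Sucla2 to Suclg2, the ATP- and GTP-forming subunits, moved from -1.20 ± 0.02 in saline mice (SD, n = 3) to -0.19 ± 0.07 in cisplatin mice. It was -0.89 ± 0.06 with dichloroacetate and -0.26 ± 0.09 in the combination. The treated libraries (-0.12, -0.26 and -0.19 and -0.23, -0.18 and -0.36) all lay above the untreated ones. The ratio of cytosolic Idh1 to mitochondrial Idh2 moved from -0.08 ± 0.06 to 1.11 ± 0.06 with cisplatin and was 1.25 ± 0.15 in the combination. The ratio of Idh3a to Idh2 moved from -1.57 ± 0.06 to -0.34 ± 0.10, and was -0.62 ± 0.06 in the combination. In all 3 ratios the fall of Suclg2 or Idh2 exceeded that of the partner.

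Alanine and aspartate aminotransferases moved in opposite senses between compartments. The ratio of cytosolic Gpt to mitochondrial Gpt2 rose from -0.87 ± 0.19 in saline to 0.33 ± 0.22 in cisplatin mice, and was -0.05 ± 0.10 in the combination. The ratio of cytosolic Got1 to mitochondrial Got2 dropped from -1.37 ± 0.11 to -1.84 ± 0.05, and was -2.01 ± 0.04 in the combination. Mdh1 to Mdh2 dropped from 1.77 ± 0.11 to 1.03 ± 0.07, and was 1.15 ± 0.02 in the combination. Averaged over mice with and without dichloroacetate, cisplatin changed the 6 ratios by 0.82, 1.19, 0.95, -0.48, -0.63 and 1.08. The order is Sucla2/Suclg2, Idh1/Idh2, Idh3a/Idh2, Got1/Got2, Mdh1/Mdh2 and Gpt/Gpt2. With dichloroacetate alone the means, in that order, were -0.89, 0.07, -1.29, -1.51, 1.67 and -1.01. Against saline, dichloroacetate alone moved Sucla2/Suclg2 by 0.31 and Idh3a/Idh2 by 0.29, each with an exact permutation p of 0.10. The other ratios had an exact permutation p of 0.30 there. Between combination and cisplatin mice, 3 against 3, the smallest exact p is 0.10. Idh3a/Idh2, Got1/Got2, Mdh1/Mdh2 and Gpt/Gpt2 reached it without overlap of the groups, at differences of -0.28, -0.17, 0.12 and -0.38, while Sucla2/Suclg2 (-0.07) and Idh1/Idh2 (0.14) had exact permutation p of 0.50 and 0.30.

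**Figure D4:**
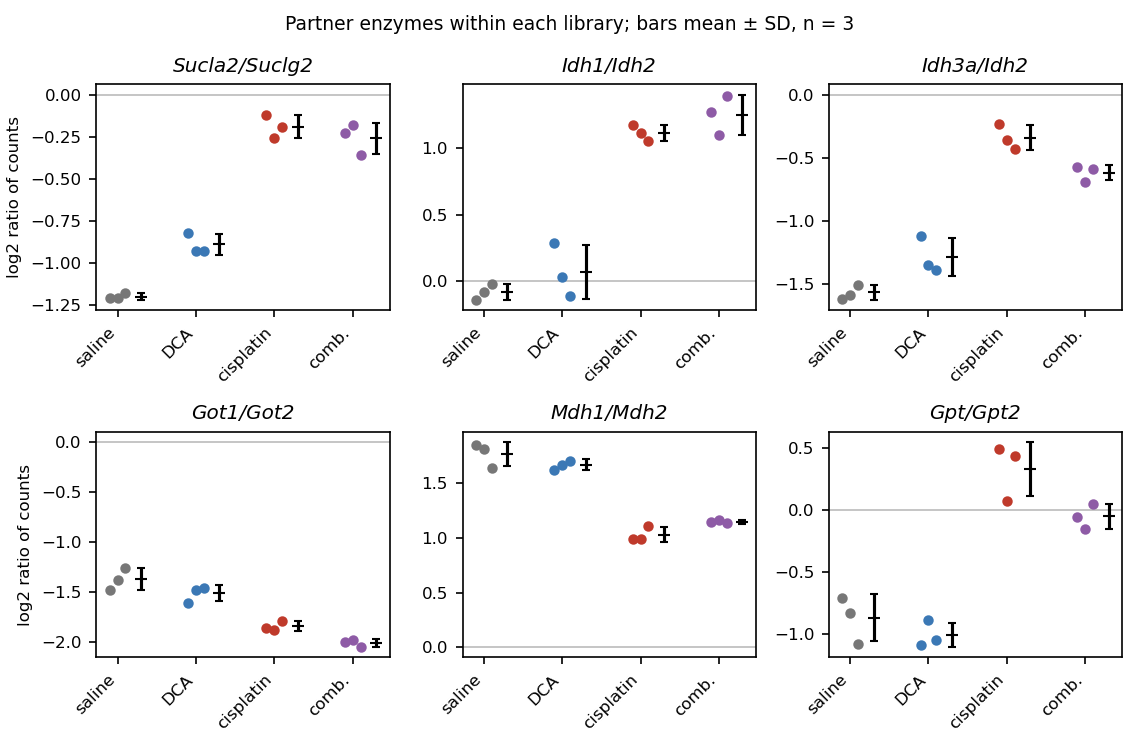
Log2 ratio of counts for 6 pairs of partner enzymes in each mouse, with bars for the mean ± SD of 3 mice and a line at 0 where it falls in view. In each panel the 6 cisplatin-treated mice are separate from the 6 others.

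Where the enzymes work was compared without a test. Of 6 cytosolic members, 5 fell with cisplatin and 1 rose, with a median log2 fold change of -0.57. Of 25 mitochondrial members, 20 fell and 2 rose, with a median of -0.45. In the combination against cisplatin, 4 of 6 cytosolic and 23 of 25 mitochondrial members were higher, with medians of 0.38 and 0.30.

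Over all tested genes the median change with cisplatin was lower in longer genes, and Suclg2 is long. It spans 245.8 kb, and the 538 tested genes of 200 to 400 kb had a median log2 fold change of -0.97 with quartiles of -1.70 and -0.48, so Suclg2 at -1.78 lay below their lower quartile. Me1, at 114.6 kb, changed by -0.97, where the median of genes of 100 to 200 kb was -0.42. In the bins from 5 to 400 kb the median of the members lay below that of all genes. Of the members 1, Gpt, spans up to 5 kb, as do 5469 of 19824 tested genes. The 10 members of 5 to 20 kb had a median of -0.67 against 0.08 for all genes of that span, the 14 of 20 to 50 kb -0.40 against -0.01, and the 4 of 50 to 100 kb -0.76 against -0.14. Idh2, at 20.5 kb, changed by -1.53. Spearman's rho between span and log2 fold change was -0.17 over the 31 members, 0.00 over the 29 without Suclg2 and Me1, and -0.27 over 19824 tested genes with a span. These describe genes measured in the same libraries and carry no test, and the part of span in the members' changes was not tested.

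**Figure D5:**
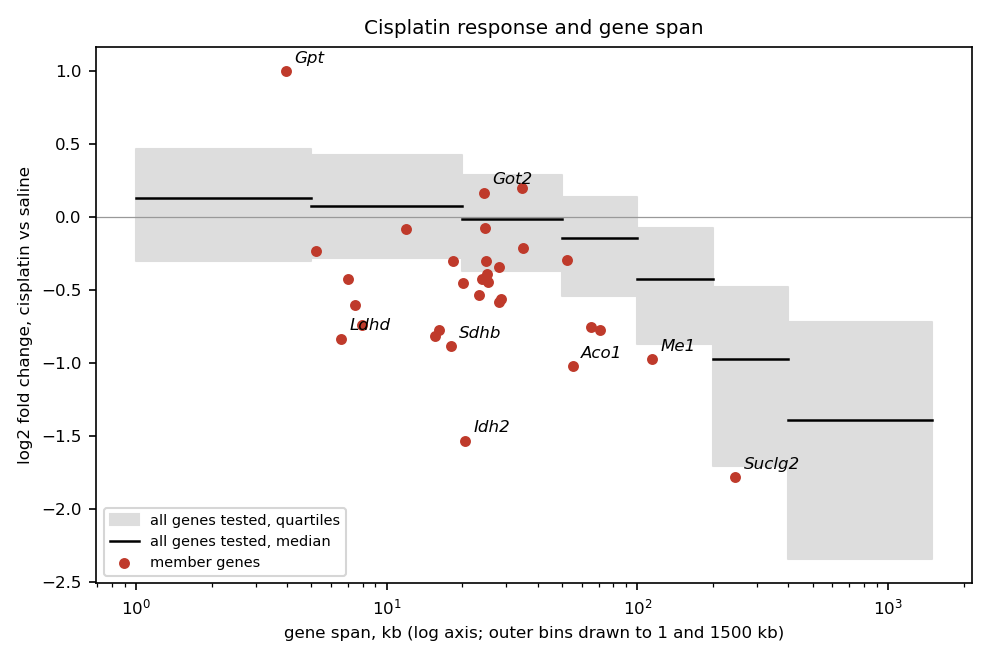
Log2 fold change of cisplatin against saline (vertical axis) against gene span in kb (log axis) for the 31 genes (red), with the median (line) and quartiles (grey) of all tested genes in 7 span bins. Most members of 5 to 100 kb lie under the median of their bin, and Suclg2 lies where the median of all genes is itself -0.97.

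Other genes of the pathway were taken from lists. Over all genes, 30.4% were lower and 29.7% higher with cisplatin, and 18.1% were higher and 13.5% lower in the combination against cisplatin. Among 9 regulators of pyruvate dehydrogenase and pyruvate carriers, 7 fell and 1 rose with cisplatin, and in the combination 7 were higher and 1 lower than with cisplatin. The one that rose was Pdk4, a kinase that inactivates the complex, which ran from 9.55 to 18.1 CPM in saline mice and 6.17 to 13.3 CPM with dichloroacetate. Cisplatin mice had 84.1 to 139 CPM and combination mice 26 to 34.8 CPM. It rose by 3.18 ± 0.29 with cisplatin (edgeR adjusted p = 5.7e-07) and was lower in the combination by 1.94 ± 0.27 (adjusted p = 0.00014). Its interaction of -1.47 ± 0.40 (adjusted p = 0.021) was not called without dichloroacetate replicate 1, cisplatin replicate 1 or 2 or combination replicate 2 (-1.83 to -1.05 over the 12 fits). The kinase Pdk2 did the reverse, -1.41 ± 0.07 with cisplatin and 0.77 ± 0.07 in the combination against cisplatin, with mean levels of 229.9 ± 8.13, 86.5 ± 5.99 and 148 ± 1.02 CPM (SD, n = 3) in saline, cisplatin and combination mice. Pdk3, another such kinase, was the single gene of these pathway lists called for dichloroacetate alone, at 0.35 ± 0.06 (edgeR adjusted p = 0.041), and was named after its value was seen. That call was kept in 1 of 12 leave-one-out fits, the one without saline replicate 3 (0.28 to 0.42, adjusted p up to 0.14). The Pdk3 call also ended in limma (0.36, adjusted p = 0.056) and with only the groups compared (0.35, adjusted p = 0.21). Pcx, pyruvate carboxylase, was not called for dichloroacetate alone, at -0.35 ± 0.08 (edgeR adjusted p = 0.11). It was called lower in DESeq2 (-0.34, adjusted p = 0.014), with library totals (-0.39, adjusted p = 0.028) and with a replicate block (-0.35, adjusted p = 0.02).

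Of 10 genes for lipoylation and related dehydrogenases, 7 fell and 1 rose with cisplatin, led by Dhtkd1, the ketoadipate dehydrogenase subunit (-1.49 ± 0.10), and Dbt, the core of the branched-chain ketoacid dehydrogenase (-1.22 ± 0.07). In the combination against cisplatin 6 were higher, among them Dhtkd1 (0.88 ± 0.10) and Dbt (0.55 ± 0.07). Of 4 assembly factors of succinate dehydrogenase, Sdhaf3 fell (-0.67 ± 0.08) and Sdhaf1 rose (0.33 ± 0.05) with cisplatin, and Sdhaf3 alone was called higher in the combination (0.45 ± 0.09).

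Of 17 genes for other routes of carbon entry and exit, 13 fell with cisplatin and 4 were not called, with a median of -0.88. Pck1, phosphoenolpyruvate carboxykinase, which draws oxaloacetate into glucose synthesis, changed by -2.98 ± 0.21, from 1351 ± 282 to 171 ± 43 CPM. Pcx, pyruvate carboxylase, which refills oxaloacetate, changed by -2.48 ± 0.09, from 532 ± 27.3 to 95.6 ± 10.7 CPM. In the combination against cisplatin 13 of the 17 were higher, with Pck1 at 2.15 ± 0.20 and Pcx at 0.75 ± 0.08, and the interaction was called above 0 for 11. Of 6 mitochondrial carriers of cycle metabolites, 4 fell and 1 rose with cisplatin, led by the aspartate-glutamate carrier Slc25a13 (-1.78 ± 0.11) and the dicarboxylate carrier Slc25a10 (-1.45 ± 0.09), and 4 were higher in the combination, these at 0.96 ± 0.10 and 1.01 ± 0.09.

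Among 13 regulators of mitochondrial gene expression, 8 fell and 4 rose with cisplatin, the latter near the share of all genes that rose. Esrrg, estrogen-related receptor gamma, fell furthest, from 59.8 to 68 CPM in saline to 13.8 to 20.0 in cisplatin mice (-1.98 ± 0.11, edgeR adjusted p = 6.5e-09), and was 31.9 to 35.1 in combination mice (1.05 ± 0.11 over cisplatin). Pprc1, a coactivator of the PGC-1 family, rose by 1.16 ± 0.10 with cisplatin. In the combination against cisplatin 6 of the 13 were higher and 3 lower, led by Esrrg and by Ppara, a receptor that drives fatty acid oxidation (1.04 ± 0.14). These changes stood beside those of the members in the same libraries, and whether they bear on them was not tested.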

How the data were processed

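Total RNA from 12 kidneys was made into libraries with a TruSeq RNA kit, per the labels' protocols. Per the submitters' processing notes, the build was mm10 and the tools were HTSeq, TopHat, Cufflinks, Trimmomatic, DESeq and bedtools. Their roles, versions and strand setting are not given in the sources used. The authors deposited whole-number counts per Ensembl gene, 1 column per library, and a table of normalised signal, the counts divided by 1 size factor per library, which served for an alternative only. Symbols, spans and exon lengths came from GENCODE M21 (GRCm38, the assembly of mm10), with 27955 identifiers matched.

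Genes passing filterByExpr were tested on the deposited counts with the quasi-likelihood test of edgeR 4.0.16 (R 4.3.3, TMM scaling, a mean per group, 12 libraries in 1 fit, 8 residual degrees of freedom, biological coefficient of variation 0.0917). Tests were 2-sided, and fold changes are on the log2 scale of the fitted model. Tested on simulated data for cisplatin against saline (20057 genes), the fit recovered 54.5% of changes of 0.5 and 77% of changes of 1 (log2). At 10 CPM or more it recovered 86.2% and 100%, and it called 0.0604% of unchanged genes. Changes below 0.5, which many members showed, were not simulated. Only 99 genes were changed by 0.5 and 100 by 1 there, up and down alike. Without a shift in RNA composition, the simulation cannot speak to the choice between TMM and library totals. Pairs of replicates differed by more than sampling noise (chi-square per degree of freedom 4.4 to 26.3), so each was counted as a sample. Alternatives were library totals, DESeq2 size factors, DESeq2 1.42.0, limma 3.58.1 on log2 of the normalised signal plus 1, no filter, only the groups compared, a replicate block, leaving out each library and, chosen after seeing the data, adding near-identical copies to their parent gene.

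Members given library by library were those with the largest called changes (8 each for cisplatin against saline and combination against cisplatin, 5 each for dichloroacetate against saline and the interaction) and those in the 6 ratios; Dld and Cs were added after their values were seen. From each pathway list the 2 largest called changes were named. The members and all lists were chosen with earlier results of these data known.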

Additional observations from a re-analysis of the deposited data

Results flagged for a closer look

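The log2 response to cisplatin differed between mice with and without dichloroacetate, by the interaction term of the edgeR fit (adjusted p below 0.05 over all genes), for 14 of the 31 members. The differences (with minus without dichloroacetate) were 0.73 for Suclg2, 0.69 for Idh1, 0.69 for Idh2, 0.50 for Gpt2, 0.43 for Aco1, 0.40 for Suclg1, 0.40 for Sdhb, 0.39 for Idh3g, 0.35 for Sucla2, 0.33 for Ogdh, 0.33 for Sdhd, 0.32 for Pdha1, 0.26 for Sdha and 0.24 for Mdh1. All 14 were above 0, and 11.4% of all genes were called in that direction. Groups of 3 mice are too small for a test of single outlying libraries.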

How the results depend on the processing

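Scaling to library totals without TMM moved the most values. For cisplatin against saline it gave 5 members higher, and 9749 genes higher and 3596 lower overall; Cs became 0.21, Idh3b 0.05 and Mdh2 0.20. For dichloroacetate against saline it gave 1 member lower and 104 genes lower. For combination against cisplatin it gave 2317 genes higher and 5134 lower. For combination against dichloroacetate it gave 7 members higher and 13 lower, and 8458 genes higher and 2225 lower; Cs became 0.15, Idh3a 0.03 and Mdh2 0.14. For combination against saline it gave 8 members higher, and 7482 genes higher and 2508 lower; Pdhx became 0.01. For the interaction it gave 2383 genes lower. By construction it keeps the shift of the median of all genes. In dichloroacetate against saline the count of all genes called higher was 55 without the filter, 6 with only the groups compared and 182 in DESeq2, and called lower 64, 9 and 154; the cause was not tested. In combination against dichloroacetate 5 members were higher with only the groups compared.

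Same-numbered replicates did not deviate together (correlations of -0.095 to 0.152 over 18 pairs, against -0.215 to 0.187 over 36 others). A replicate block lost no member call and gained 7: Gpt2 in cisplatin against saline (-0.21, adjusted p = 0.034), Cs in combination against cisplatin (0.12, 0.048), Dlat in combination against saline (-0.12, 0.045), Sdhc in the interaction (0.26, 0.047), and Suclg1 (-0.15, 0.027), Glud1 (0.19, 0.016) and Gpt2 (0.29, 0.0093) in combination against dichloroacetate, where 5 members were then higher. It gave 56 genes higher and 61 lower in dichloroacetate against saline.

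Leaving out each library gave 25 to 27 members lower in cisplatin against saline, 23 to 28 higher in combination against cisplatin, 3 to 5 higher in combination against dichloroacetate, 15 to 20 lower in combination against saline and 10 to 17 in the interaction, and over all genes 5 to 72 higher and 7 to 54 lower in dichloroacetate against saline and 1538 to 2607 higher in the interaction (1538 without cisplatin replicate 1). The 6 ratios kept their direction and exact p side in all of these. With size factors in place of TMM, calls ended for Glud1, Got2, Mdh2 and Pdhx (combination against cisplatin) and for Gpt2, Mdh1 and Sdha (interaction, adjusted p of 0.053 to 0.063).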
